A study of Trichoderma reesei with 17 samples.

Results

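Transporters of the major facilitator superfamily (MFS) of the fungus Trichoderma reesei were followed in RNA-seq counts of 17 libraries. They were chosen by the text of the deposited protein descriptions. A protein was taken when its description held MFS or major facilitator and not the word drug, when it was not among 11 MFS proteins that were set apart by ID, and when its gene had at least 10 counts in at least 2 libraries. Of 186 descriptions with an MFS word, 4 held the word drug and 11 belonged to the proteins set apart. This left 171 proteins, of which 170 passed the count filter, among 9129 genes counted and 8506 genes tested. The protein left out by the filter, ID 68925, had at most 9 counts in a library and 50 counts in all. Just inside the filter, the second-highest library count was 10 for IDs 3330 and 67692, 11 for IDs 3765 and 2068, and 12 for ID 60889.

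MFS proteins are membrane carriers that move small solutes, among them sugars, organic acids, peptides, vitamins and toxins, either down a gradient or coupled to the movement of protons or of another solute. In fungi that live on plant polymers, secreted enzymes cut cellulose and hemicellulose into soluble sugars, and permeases of this superfamily bring such sugars into the hyphae. Sophorose, a disaccharide of glucose, induces cellulases in T. reesei, and XYR1 is the transcriptional activator on which the expression of its cellulase and xylanase genes depends.

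The libraries came from mycelia of a Δxyr1 mutant, which lacks xyr1, and of its parental strain QM9414, each grown in sophorose, cellulose or glucose. Each group had 3 libraries from biological replicates, except QM9414 glucose, for which replicates 1 and 3 were used. The medium held 1 mM sophorose, 1% cellulose or 2% glucose, and RNA was pooled over the time points of a replicate. Sophorose cultures were sampled at 2, 4 and 6 h and glucose cultures at 24 and 48 h for both strains, while cellulose cultures were taken at 8 and 24 h for Δxyr1 and at 24, 48 and 72 h for QM9414. A growth phase of 24 h in glycerol preceded the sophorose cultures according to the deposited description, whereas the published methods place it before Δxyr1 cellulose. Carbon source, culture time and this transfer can therefore not be told apart, and neither can strain and culture time in cellulose. No complemented strain was among the libraries of the mutant, and in pooled RNA a higher level per hypha and a larger share of hyphae with the transcript cannot be told apart.

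The counts per library summed to between 7014100 and 29056712, with a median of 14468110. Levels are given as CPM, the counts per 1000000 counts of a library after TMM scaling, and every test was a quasi-likelihood test of edgeR over the 8506 genes. A gene is said to have risen or fallen (or to have been called) when its Benjamini-Hochberg adjusted p was at most 0.05 and its fitted log2 fold change was 1 or more in either direction. Log2 fold changes are given ± SE, and levels over a group ± SD. This SE is the size of the log2 fold change divided by the square root of its F value. It was not taken from the fit directly. TMM factors ran from 0.528 in Δxyr1 sophorose replicate 3 to 1.31 in Δxyr1 cellulose replicate 2. They were 1.15 and 1.02 in Δxyr1 sophorose replicates 1 and 2. The transporters took 1.58%, 1.04% and 0.747% of the raw counts in Δxyr1 sophorose replicates 1, 2 and 3. As a check of the labels, xyr1 stood at 86.2 ± 6.51, 10.9 ± 3.36 and 3.72 ± 2.42 CPM in Δxyr1 sophorose, cellulose and glucose, against 2560.3 ± 315, 622 ± 76.6 and 9.61 ± 0.569 CPM in QM9414 (SD). The deleted gene was thus not at 0 in the mutant libraries. The cellulase cbh1 was at most 57.9 CPM in any Δxyr1 library and at least 11787 CPM in QM9414 sophorose and cellulose. QM9414 cellulose replicate 1 stood apart. There were 24 genes for which every glucose library was at 50 CPM or more and at least 50-fold above the other 2 QM9414 cellulose libraries. In replicate 1 these genes reached 9.45% to 22.2% of their median glucose level, and 1 transporter, ID 80879, was among them. Log2 values of named transporters that rest on this library are given with and without it. The summed level of 8 genes described with conidia or spore words was 1697 to 4266 CPM in Δxyr1 cellulose and 3528 to 4475 CPM in QM9414 cellulose, against 305 to 451 CPM in the other 4 groups. Of the 8 genes, 2 rose in cellulose against glucose in each strain, and their part in the cellulose values below was not tested.

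Transporter transcripts as a whole were more abundant away from glucose in QM9414. The 170 genes summed to 12692 ± 2157 CPM in Δxyr1 sophorose, 8595 ± 1074 CPM in Δxyr1 cellulose and 8938 ± 1691 CPM in Δxyr1 glucose. In QM9414 they summed to 12996 ± 728 CPM in sophorose, 11769.7 ± 161 CPM in cellulose and 5846 ± 954 CPM in glucose (SD). The QM9414 groups did not overlap in this sum, with sophorose above cellulose above glucose, whereas the Δxyr1 cellulose libraries (7659 to 9767 CPM) lay within the range of Δxyr1 glucose (7050.0 to 10313 CPM). A few genes carried a large part of the sum. The 4 most abundant took 57.9%, 42.7% and 63.4% of it in Δxyr1 sophorose, cellulose and glucose, and 57.3%, 46.8% and 42.0% in the same carbon sources in QM9414. At the other end, between 14 and 36 transporters per group averaged under 1 CPM, most often in glucose (36 in Δxyr1 and 35 in QM9414).

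Most transporters changed with the carbon source in both strains, more often than other genes, and rises against glucose outnumbered falls. In Δxyr1 sophorose against glucose, 75 of 170 rose and 45 fell, or 70.6%, where 36.0% of all genes tested were called. In Δxyr1 cellulose against glucose, 83 rose and 43 fell, or 74.1%, where 44.2% of all genes were called. In Δxyr1 sophorose against cellulose, 23 rose and 28 fell, or 30.0%, which is close to the 25.3% of all genes (13.5% rose and 11.8% fell). The same comparisons in QM9414 gave 76 rises and 40 falls in sophorose against glucose, or 68.2% where 38.8% of all genes were called. QM9414 cellulose against glucose gave 83 rises and 21 falls, or 61.2% where 32.8% of all genes were called. QM9414 sophorose against cellulose gave 21 rises and 40 falls, or 35.9% where 17.4% of all genes were called (7.17% rose and 10.2% fell). Comparisons with glucose in a strain share its glucose libraries and are not independent of each other. By direction, 19.4%, 23.0%, 19.6% and 19.2% of all genes rose in the 4 comparisons with glucose in the order given, against 44.1%, 48.8%, 44.7% and 48.8% of the transporters. The corresponding shares that fell were 16.6%, 21.2%, 19.2% and 13.6% of all genes, against 26.5%, 25.3%, 23.5% and 12.4% of the transporters. The excess over other genes was thus on the side of the rises in QM9414 cellulose against glucose, while the share that fell there was close to that of all genes.

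**Figure D1:**
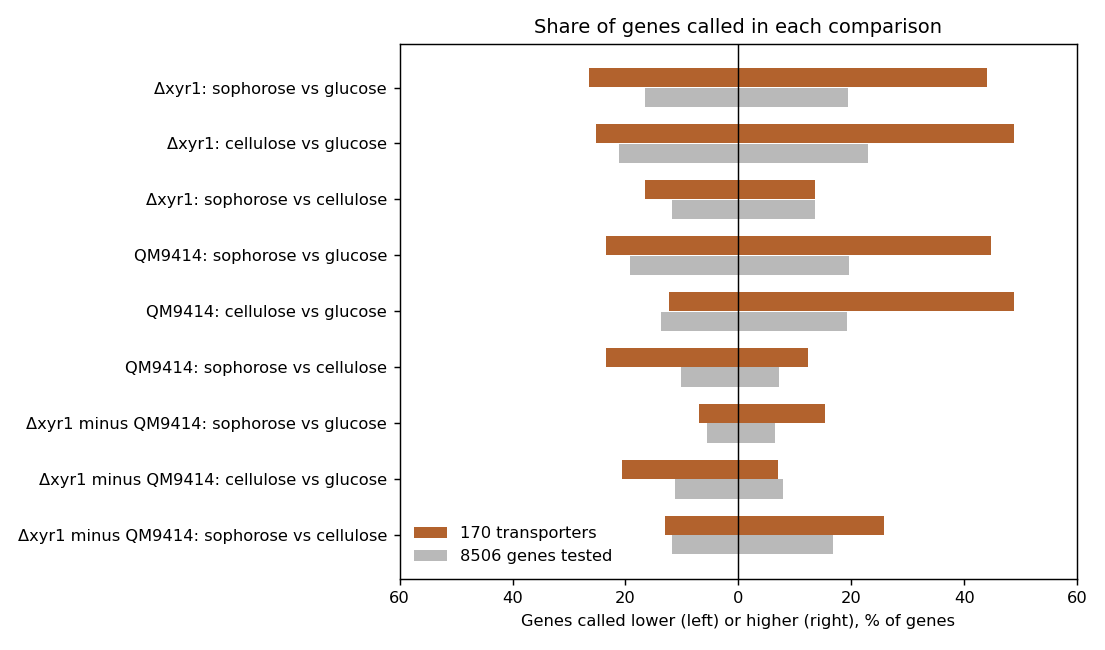
Share of genes called lower (left of 0) and higher (right of 0), in % of genes, for the 170 transporters and the 8506 genes tested, with 1 pair of bars per comparison. The bars of the transporters reach further right than those of all genes in the 4 comparisons with glucose, for example 48.8% against 19.2% in QM9414 cellulose against glucose.

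The median log2 fold change of the 170 transporters was 0.70, 0.97 and 0.04 in Δxyr1 for sophorose against glucose, cellulose against glucose and sophorose against cellulose. In QM9414 it was 0.77, 1.02 and −0.37, while the medians over all genes tested lay between −0.05 and 0.05. With genes that had no count in a group set to the fold at a floor of 3 counts over that group, the QM9414 sophorose against glucose median became 0.71. The other 5 did not move. Without scaling factors the median of all genes moved by 0.84 in Δxyr1 cellulose against glucose, where 104 transporters rose and 29 fell. It moved by −0.48 in Δxyr1 sophorose against cellulose, where 12 rose and 44 fell. The calls over all genes in these runs are not given, so these counts only show how scaling moved the calls. At least 1 comparison of carbon sources was called for 142 transporters in Δxyr1, or 83.5% where 56.6% of all genes tested were. In QM9414 this was so for 133, or 78.2% where 47.5% of all genes were, and in either strain for 150, or 88.2% where 64.6% of all genes were.

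Of the 170 descriptions, 160 named no substrate on the word list used, while 148 read MFS permease and 6 read Major facilitator superfamily. The 10 that matched the list named a sugar in 6 cases, a carboxylate in 2 and a peptide in 2. ID 22912, described as the glucose permease HXT1 after the name of a hexose transporter of Saccharomyces cerevisiae, was low in glucose. It had 339.6, 126 and 278 CPM in Δxyr1 sophorose, 33.4, 47.7 and 34.5 CPM in Δxyr1 cellulose, and 0.746, 2.04 and 3.23 CPM in Δxyr1 glucose. In the parental strain it had 410.3, 463 and 424 CPM in QM9414 sophorose, 723, 842 and 679 CPM in QM9414 cellulose, and 1.99 and 1.63 CPM in QM9414 glucose. The libraries of sophorose, cellulose and glucose did not overlap in either strain, with sophorose highest in Δxyr1 and cellulose highest in QM9414. Against glucose, it rose by 7.00 ± 0.46, adjusted p = 4.42e-09, in Δxyr1 sophorose and of 4.31 ± 0.43, adjusted p = 2.60e-07, in Δxyr1 cellulose. In QM9414 it rose by 7.91 ± 0.58, adjusted p = 1.69e-08, in sophorose and by 8.70 ± 0.60, adjusted p = 1.09e-08, in cellulose. Sophorose against cellulose was called higher in Δxyr1 (2.68 ± 0.36, adjusted p = 2.06e-05) and was not called in QM9414 (−0.79 ± 0.34, adjusted p = 0.0837).

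ID 44175, described as an H+ sugar transporter, was high away from glucose only in QM9414 libraries. It had 8.40, 7.57 and 13.0 CPM in Δxyr1 sophorose, 2.25, 1.99 and 1.87 CPM in Δxyr1 cellulose, and 7.46, 15.7 and 14.7 CPM in Δxyr1 glucose, against 183, 188 and 288 CPM in QM9414 sophorose, 216, 272 and 329.6 CPM in QM9414 cellulose, and 15.3 and 9.49 CPM in QM9414 glucose. All 6 QM9414 sophorose and cellulose libraries lay at or above 183 CPM and all others at or below 15.7 CPM. In Δxyr1 it fell in cellulose against glucose (log2 fold change −2.62 ± 0.35, adjusted p = 6.89e-06) and was not called in sophorose against glucose (−0.38 ± 0.30, adjusted p = 0.284). In QM9414 it rose 17.9-fold in sophorose (4.16 ± 0.38, adjusted p = 1.54e-07) and 22.2-fold in cellulose (4.47 ± 0.38, adjusted p = 1.10e-07), both against glucose. ID 3532, a sugar permease by its description, was low throughout. Its values were 0.275, 0.449 and 0.360 CPM in Δxyr1 sophorose, 0.593, 0.412 and 0.570 CPM in Δxyr1 cellulose, and 0.266, 0.291 and 0.307 CPM in Δxyr1 glucose, against 0.471, 0.447 and 0.359 CPM in QM9414 sophorose, 3.38, 2.86 and 2.34 CPM in QM9414 cellulose, and 0.0903 and 0.105 CPM in QM9414 glucose. Only the QM9414 cellulose libraries were above 1 CPM, and sophorose fell below cellulose (−2.74 ± 0.25, adjusted p = 5.83e-07). QM9414 glucose held 3 counts of this gene, and cellulose was higher by a ratio of 29.1-fold (95% counting interval 9.77 to 143).

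The remaining sugar names belong to 3 genes. ID 48444, a maltose permease by its description, was highest in sophorose in both strains. It had 46.9, 18.1 and 29.5 CPM in Δxyr1 sophorose, 8.18, 6.39 and 5.13 CPM in Δxyr1 cellulose, and 1.33, 1.74 and 1.38 CPM in Δxyr1 glucose, against 78.3, 104 and 98.9 CPM in QM9414 sophorose, 22.9, 26.5 and 21.3 CPM in QM9414 cellulose, and 1.72 and 1.47 CPM in QM9414 glucose. No groups overlapped within a strain, and all 6 comparisons were called, with log2 fold changes of 4.42 ± 0.33, 2.15 ± 0.34 and 2.27 ± 0.28 in Δxyr1 and 5.89 ± 0.40, 3.90 ± 0.38 and 1.99 ± 0.26 in QM9414 for sophorose against glucose, cellulose against glucose and sophorose against cellulose (SE, largest adjusted p = 3.82e-05). ID 67469, the other maltose permease by name, stayed between 52.9 and 112 CPM in all 17 libraries and was called in none of the 6 comparisons. ID 62380, entered as a possible galactose permease, was highest in Δxyr1 glucose. It had 59.0, 174 and 383 CPM in Δxyr1 sophorose, 218, 109 and 182 CPM in Δxyr1 cellulose, and 1637, 2992 and 3206 CPM in Δxyr1 glucose, against 44.7, 48.5 and 47.6 CPM in QM9414 sophorose, 809, 481 and 281 CPM in QM9414 cellulose, and 343 and 927 CPM in QM9414 glucose. The Δxyr1 glucose libraries stood above all other libraries, whereas QM9414 cellulose and glucose overlapped. It fell in sophorose against glucose in both strains (−3.67 ± 0.61, adjusted p = 7.76e-05, in Δxyr1 and −3.76 ± 0.64, adjusted p = 1.01e-04, in QM9414). In cellulose against glucose it fell in Δxyr1 (−3.94 ± 0.61, adjusted p = 3.40e-05) and was not called in QM9414 (−0.28 ± 0.61, adjusted p = 0.716). Without QM9414 cellulose replicate 1 the QM9414 value was −0.74 and not called (adjusted p = 0.353). A further description, that of ID 78833 as a fucose permease, was not on the word list. This gene had 144, 110.0 and 102 CPM in Δxyr1 sophorose, 47.3, 50.4 and 35.7 CPM in Δxyr1 cellulose, and 0.640, 1.65 and 1.69 CPM in Δxyr1 glucose, against 137, 150.2 and 142 CPM in QM9414 sophorose, 40.8, 52.4 and 50.2 CPM in QM9414 cellulose, and 0.361 and 0.996 CPM in QM9414 glucose. It rose against glucose in all 4 comparisons, by 93.9-fold and 35.2-fold in Δxyr1 sophorose and cellulose and by 191-fold and 63.7-fold in QM9414 sophorose and cellulose.

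Both peptide transporters were highest in glucose. ID 80879, described as an H+/oligopeptide transporter, had 1.38, 1.73 and 1.51 CPM in Δxyr1 sophorose, 3.68, 2.95 and 4.32 CPM in Δxyr1 cellulose, and 515, 549 and 575 CPM in Δxyr1 glucose, against 15.1, 21.1 and 17.7 CPM in QM9414 sophorose, 71.5, 2.93 and 3.26 CPM in QM9414 cellulose, and 429 and 424 CPM in QM9414 glucose. The glucose libraries of both strains were above 423 CPM and the others below 72 CPM, and among QM9414 cellulose libraries replicate 1 was far above the other 2. The gene fell 352-fold in Δxyr1 sophorose (−8.46 ± 1.07, adjusted p = 5.23e-06) and 23.7-fold in QM9414 sophorose (−4.57 ± 0.89, adjusted p = 3.70e-04), both against glucose. In cellulose against glucose the log2 fold change was −7.23 ± 1.00, adjusted p = 1.03e-05, in Δxyr1. In QM9414 it was −4.03 ± 0.87, adjusted p = 0.00105, and −7.10 without cellulose replicate 1 (adjusted p = 3.88e-11). ID 80086, a peptide transporter by its description, had 1.31, 1.15 and 1.44 CPM in Δxyr1 sophorose, 16.5, 3.71 and 6.36 CPM in Δxyr1 cellulose, and 28.7, 43.0 and 37.6 CPM in Δxyr1 glucose, against 11.1, 8.43 and 11.4 CPM in QM9414 sophorose, 11.03, 7.86 and 8.55 CPM in QM9414 cellulose, and 17.9 and 29.0 CPM in QM9414 glucose. Glucose was highest in each strain, and the Δxyr1 sophorose libraries, all under 1.5 CPM, were the lowest of all. Its log2 fold change in sophorose against glucose was −4.80 ± 0.45, adjusted p = 2.23e-07, in Δxyr1 and −1.19 ± 0.40, adjusted p = 0.0166, in QM9414.

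The carboxylate transporters did not pass the threshold. ID 58560, a monocarboxylate transporter by name, stayed between 4.26 and 13.2 CPM, and ID 70323, a putative monocarboxylic acid transporter, between 31.8 and 70.9 CPM over all libraries, and neither was called in any of the 6 comparisons. In Δxyr1 cellulose against glucose, ID 70323 had a log2 fold change of 0.82 ± 0.13, adjusted p = 3.12e-05, below the fold threshold. ID 70349 carries the name LIZ1, that of a pantothenate transporter in fission yeast, and ID 64874 that of a toxin efflux pump. Both were higher away from glucose. ID 70349 had 20.0, 21.2 and 17.6 CPM in Δxyr1 sophorose, 11.6, 13.6 and 11.3 CPM in Δxyr1 cellulose, and 1.33, 2.42 and 1.84 CPM in Δxyr1 glucose, against 8.72, 9.33 and 8.09 CPM in QM9414 sophorose, 12.6, 14.0 and 15.3 CPM in QM9414 cellulose, and 2.89 and 1.52 CPM in QM9414 glucose, and rose in all 4 comparisons with glucose (log2 fold change 2.04 to 3.43). ID 64874 had 159, 253 and 279.6 CPM in Δxyr1 sophorose, 92.5, 136 and 109 CPM in Δxyr1 cellulose, and 52.4, 49.6 and 55.8 CPM in Δxyr1 glucose, against 98.8, 116 and 113 CPM in QM9414 sophorose, 117, 129 and 131 CPM in QM9414 cellulose, and 53.1 and 48.2 CPM in QM9414 glucose, and also rose in all 4, most in Δxyr1 sophorose (2.13 ± 0.19, adjusted p = 1.06e-07).

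A permease with no named substrate, ID 47710, was the most abundant transporter transcript in sophorose. It had 7200.4, 3818 and 7541 CPM in Δxyr1 sophorose, 952, 1185 and 674 CPM in Δxyr1 cellulose, and 70.8, 91.4 and 93.5 CPM in Δxyr1 glucose, against 5016, 6522 and 5546 CPM in QM9414 sophorose, 2021, 2139 and 2266 CPM in QM9414 cellulose, and 109 and 81.4 CPM in QM9414 glucose. The carbon sources did not overlap in either strain, and their order, sophorose over cellulose over glucose, was the same in both. Against glucose it rose 72.6-fold in Δxyr1 sophorose (6.18 ± 0.35, adjusted p = 6.69e-10) and 10.996-fold in Δxyr1 cellulose (3.46 ± 0.31, adjusted p = 7.62e-08). In QM9414 it rose 59.8-fold in sophorose (5.90 ± 0.41, adjusted p = 1.03e-08) and 22.5-fold in cellulose (4.49 ± 0.38, adjusted p = 1.11e-07). Per kb of gene span, introns included, it stood at 2739.8 ± 911 CPM per kb in Δxyr1 sophorose and 2522 ± 338 CPM per kb in QM9414 sophorose (SD). Below it in sophorose, ID 80026 was at 251 ± 36.4 and 245 ± 12.5 CPM per kb in Δxyr1 and QM9414 sophorose, and ID 68812 at 173 ± 31.6 and 444 ± 37.3 CPM per kb.

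ID 68812 was abundant in cellulose. It had 418, 349 and 289.5 CPM in Δxyr1 sophorose, 1017, 1986 and 994 CPM in Δxyr1 cellulose, and 5.70, 6.01 and 7.68 CPM in Δxyr1 glucose, against 966, 820.2 and 931 CPM in QM9414 sophorose, 1727, 1669 and 1780.1 CPM in QM9414 cellulose, and 9.03 and 8.02 CPM in QM9414 glucose. All glucose libraries were under 10 CPM and all cellulose libraries at or above 994 CPM, without overlap between carbon sources in a strain. It rose 206-fold in Δxyr1 cellulose (7.69 ± 0.32, adjusted p = 2.65e-11) and 203-fold in QM9414 cellulose (7.66 ± 0.39, adjusted p = 4.68e-10), both against glucose. Sophorose stood below cellulose in Δxyr1 (−1.92 ± 0.25, adjusted p = 1.31e-05), and in QM9414 the same difference was under the fold threshold (−0.93 ± 0.24, adjusted p = 0.00687). Per kb, ID 68812 (653 ± 277 CPM per kb) and ID 47710 (415 ± 113 CPM per kb) differed by less than the sum of their spreads in Δxyr1 cellulose, whereas in QM9414 cellulose ID 47710 (949 ± 54.2 CPM per kb) stood above ID 68812 (846 ± 27.1 CPM per kb) by more than that. ID 44956 was abundant in every group and lowest in sophorose. It had 204, 359 and 819 CPM in Δxyr1 sophorose, 950.1, 877 and 816 CPM in Δxyr1 cellulose, and 1819, 2495 and 2625 CPM in Δxyr1 glucose, against 231, 253 and 241 CPM in QM9414 sophorose, 1074, 853 and 759 CPM in QM9414 cellulose, and 754 and 1569.5 CPM in QM9414 glucose. It fell in Δxyr1 sophorose (−2.33 ± 0.40, adjusted p = 1.10e-04), Δxyr1 cellulose (−1.39 ± 0.39, adjusted p = 0.00465) and QM9414 sophorose (−2.27 ± 0.42, adjusted p = 2.52e-04) against glucose, and was not called in QM9414 cellulose against glucose (−0.38 ± 0.42, adjusted p = 0.469), where the libraries overlapped. Sophorose and cellulose also overlapped in Δxyr1. In glucose, ID 62380 led per kb in Δxyr1 (1427 ± 465 CPM per kb), ahead of ID 44956 (944 ± 177 CPM per kb) by less than the sum of their spreads. In QM9414 glucose the order of these means was the other way, and the spreads overlapped (347 ± 226 CPM per kb for ID 62380 and 474 ± 235 CPM per kb for ID 44956).

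**Figure D2:**
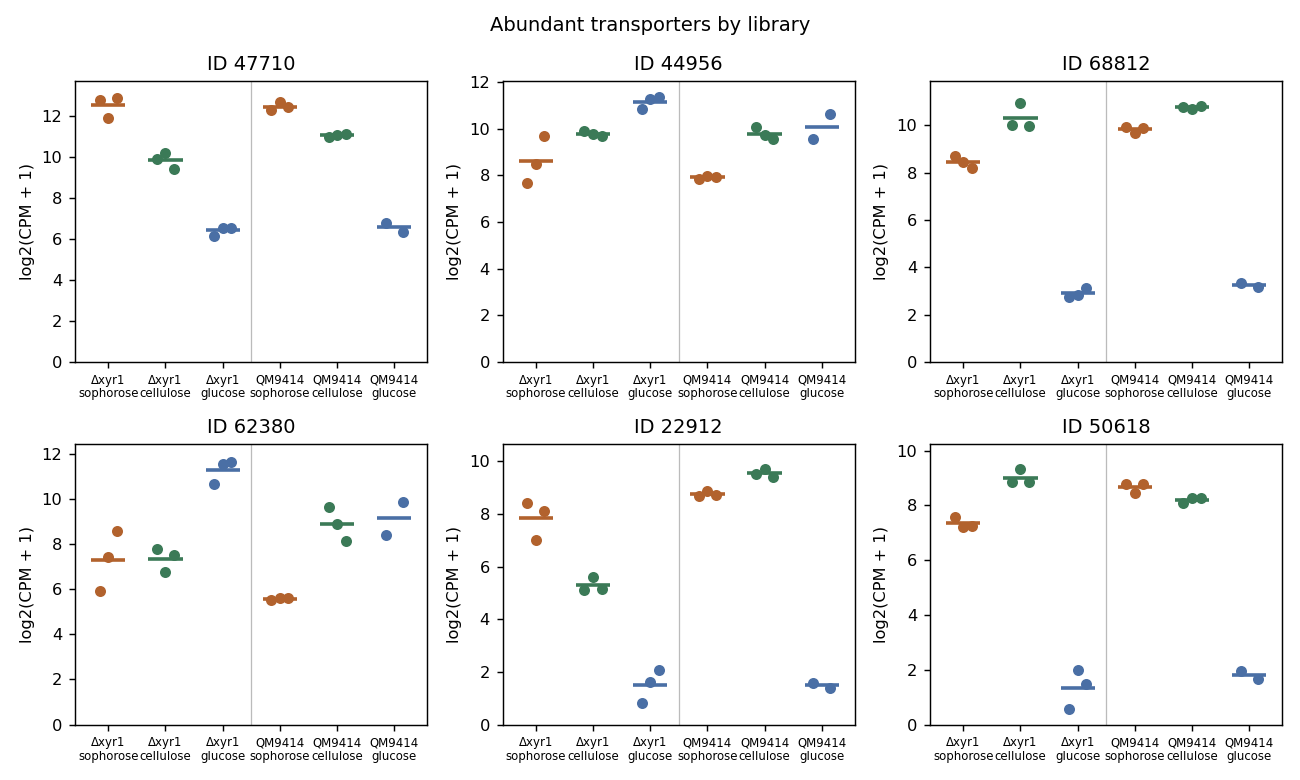
Levels of 6 abundant transporters by library, as log2(CPM + 1), with 1 point per library and a line at the group mean, Δxyr1 groups left of QM9414 groups. IDs 47710, 68812, 22912 and 50618 are low in glucose and high in sophorose and cellulose, ID 62380 is highest in Δxyr1 glucose (1637 to 3206 CPM), and ID 44956 is high in all 6 groups.

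The 6 largest rises in Δxyr1 sophorose against glucose were those of IDs 56289, 53903, 111888, 71059, 76897 and 67752. ID 56289 had 97.8, 103 and 51.9 CPM in Δxyr1 sophorose and 0, 0.194 and 0 CPM in Δxyr1 glucose, a ratio of 1790.0-fold (95% counting interval 495 to 14786), where both of the 2 glucose counts were in replicate 2 (adjusted p = 6.29e-10). ID 53903 had 199.9, 162 and 96.3 CPM in Δxyr1 sophorose and 0.107, 0.194 and 0.230 CPM in Δxyr1 glucose, and rose by 9.76 ± 0.38, adjusted p = 1.46e-11. The sophorose libraries of both were far above those of glucose. IDs 111888 and 71059 had no count in the 3 Δxyr1 glucose libraries. With a floor of 3 counts over the group, ID 111888 (7.50, 6.16 and 4.97 CPM in Δxyr1 sophorose) was at least 87.4-fold higher and ID 71059 (5.51, 3.91 and 3.60 CPM) at least 60.9-fold higher in sophorose. ID 76897 had 147, 121 and 95.2 CPM in Δxyr1 sophorose and 0.0533, 0.388 and 0.538 CPM in Δxyr1 glucose, and a log2 fold change of 8.66 ± 0.34, adjusted p = 1.67e-11, with 7.98 without Δxyr1 glucose replicate 1 and 9.41 without replicate 3. ID 67752 had 63.3, 60.7 and 46.9 CPM in Δxyr1 sophorose and 0.0533, 0.485 and 0.538 CPM in Δxyr1 glucose, and a log2 fold change of 7.46 ± 0.31, adjusted p = 2.96e-11, with 6.77 without Δxyr1 glucose replicate 1 and 8.06 without replicate 3. For both, glucose replicate 1 was the lowest glucose library.

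In QM9414, ID 56684 stood at 1 count over the glucose libraries. It had 27.9, 18.6 and 21.0 CPM in QM9414 sophorose and 0 and 0.0524 CPM in QM9414 glucose, a ratio of 667-fold (95% counting interval 119 to 26361). The same gene was at 0.620, 1.22 and 0.792 CPM in Δxyr1 sophorose and 0, 0 and 0 CPM in Δxyr1 glucose, at least 12.4-fold higher in sophorose. ID 71059 had 3.85, 3.32 and 3.41 CPM in QM9414 sophorose and 0 and 0 CPM in QM9414 glucose, at least 35.2-fold higher in sophorose. ID 76897 was at 50.5, 44.5 and 52.0 CPM in QM9414 sophorose against 0.181 and 0.157 CPM in QM9414 glucose (8.13 ± 0.43, adjusted p = 6.48e-10). ID 104549 was at 349, 289 and 275 CPM against 2.26 and 1.05 CPM in the same groups (7.59 ± 0.35, adjusted p = 2.07e-10). IDs 22912 and 78833, described above, were also among the 6 largest rises in QM9414, ID 78833 with a log2 fold change of 7.58, and of 8.64 without QM9414 glucose replicate 3. None of these genes overlapped between sophorose and glucose in the strain for which it is named, which was a condition for naming it.

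The largest falls in sophorose were of genes expressed in glucose and low in sophorose. ID 76641 had 0.757, 0.834 and 0.216 CPM in Δxyr1 sophorose and 97.9, 139 and 119 CPM in Δxyr1 glucose, against 1.49, 1.02 and 1.08 CPM in QM9414 sophorose and 162 and 296 CPM in QM9414 glucose. It had log2 fold changes of −7.58 ± 0.78, adjusted p = 5.54e-07, in Δxyr1 and of −7.59 ± 0.76, adjusted p = 4.54e-07, in QM9414. ID 53503 had 2.13, 1.92 and 1.44 CPM in Δxyr1 sophorose and 99.9, 92.4 and 139.9 CPM in Δxyr1 glucose, against 1.26, 1.09 and 1.44 CPM in QM9414 sophorose and 114 and 144 CPM in QM9414 glucose. It had log2 fold changes of −5.91 ± 0.48, adjusted p = 4.31e-08, in Δxyr1 and of −6.67 ± 0.52, adjusted p = 3.05e-08, in QM9414. ID 21595 followed the same pattern, with 1.65, 2.25 and 3.03 CPM in Δxyr1 sophorose and 128, 106 and 118 CPM in Δxyr1 glucose and a log2 change of −5.67 ± 0.46, adjusted p = 4.42e-08, in Δxyr1, and with 1.41, 2.04 and 1.80 CPM in QM9414 sophorose and 61.2 and 85.2 CPM in QM9414 glucose and −5.37 ± 0.48, adjusted p = 1.44e-07, in QM9414. Among the 6 largest falls these 3 were shared by the strains, beside IDs 80879, 68988 and 59333 in Δxyr1 and IDs 65085, 78585 and 69563 in QM9414. ID 68988 had 0.620, 0.257 and 0.720 CPM in Δxyr1 sophorose and 35.0, 37.3 and 60.5 CPM in Δxyr1 glucose (−6.37 ± 0.67, adjusted p = 7.14e-07). ID 59333 had 0.138, 0.128 and 0.0720 CPM in Δxyr1 sophorose and 8.95, 0.872 and 11.7 CPM in Δxyr1 glucose (−5.91 ± 0.99, adjusted p = 8.69e-05), so that glucose replicate 2 lay well below the other 2. ID 78585 had 0.864, 1.21 and 0.659 CPM in QM9414 sophorose and 31.1 and 48.1 CPM in QM9414 glucose (−5.43 ± 0.40, adjusted p = 1.83e-08). ID 65085 had 0, 0.0639 and 0.180 CPM in QM9414 sophorose and 3.70 and 5.14 CPM in QM9414 glucose (−5.53 ± 1.04, adjusted p = 2.69e-04), and its log2 fold change was −6.67 without QM9414 sophorose replicate 3. ID 69563 had 0.550, 0.319 and 0.359 CPM in QM9414 sophorose and 26.1 and 4.72 CPM in QM9414 glucose (−5.21 ± 0.84, adjusted p = 6.48e-05), with glucose replicate 1 well above replicate 3, and its log2 fold change was −3.53 without QM9414 glucose replicate 1 and −5.94 without replicate 3.

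In cellulose against glucose, the 6 largest rises in Δxyr1 were those of IDs 50618, 123241, 111888, 71059, 76897 and 68812. ID 50618 had 467, 636 and 459 CPM in Δxyr1 cellulose and 0.480, 3.00 and 1.77 CPM in Δxyr1 glucose, and rose 318-fold (8.31 ± 0.43, adjusted p = 2.35e-10), with a log2 fold change of 8.94 without Δxyr1 glucose replicate 2. ID 123241 had 74.1, 85.2 and 56.5 CPM in Δxyr1 cellulose and 0.160, 0.291 and 0.230 CPM in Δxyr1 glucose, and rose 322-fold (8.33 ± 0.28, adjusted p = 2.95e-12). ID 111888 (3.44, 3.78 and 4.07 CPM in Δxyr1 cellulose) was at least 53.3-fold higher and ID 71059 (2.02, 1.92 and 2.28 CPM) at least 29.0-fold higher than in glucose, where neither had a count. ID 76897 was at 57.6, 68.7 and 72.7 CPM in Δxyr1 cellulose (7.79 ± 0.34, adjusted p = 3.54e-11), with 7.11 without Δxyr1 glucose replicate 1 and 8.53 without replicate 3. In QM9414 the 6 largest rises were those of IDs 76897, 22912, 71059, 56684, 68812 and 104549. ID 76897 had 74.6, 89.7 and 89.5 CPM in QM9414 cellulose (8.92 ± 0.43, adjusted p = 3.30e-10), and ID 104549 had 199, 233 and 179 CPM (7.01 ± 0.34, adjusted p = 3.39e-10). ID 56684, at 9.29, 12.1 and 10.1 CPM, was higher than in glucose by a ratio of 312-fold (95% counting interval 55.8 to 12362), and ID 71059, at 1.74, 2.43 and 2.52 CPM, was at least 21.9-fold higher. Cellulose and glucose libraries did not overlap for any of these genes, which was a condition for naming them.

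Falls in cellulose against glucose were called for 43 transporters in Δxyr1 and 21 in QM9414, or 25.3% and 12.4%. Both were near the shares of all genes that fell, 21.2% in Δxyr1 and 13.6% in QM9414. In Δxyr1, ID 65085 had 0.237, 0.137 and 0.0815 CPM in Δxyr1 cellulose and 11.03, 18.6 and 35.3 CPM in Δxyr1 glucose (−7.16 ± 0.89, adjusted p = 3.34e-06). ID 54461 had 0.356, 0.206 and 0 CPM in Δxyr1 cellulose and 14.6, 4.75 and 21.0 CPM in Δxyr1 glucose (−6.24 ± 0.73, adjusted p = 1.58e-06), with −6.83 without Δxyr1 cellulose replicate 1 and −5.64 without replicate 3. ID 64919 had no count in Δxyr1 cellulose and 0.853, 1.55 and 1.38 CPM in Δxyr1 glucose, and was at least 14.0-fold lower in cellulose. IDs 80879, 76641 and 68988 also belonged to the 6 largest falls, with 0.593, 0.412 and 2.28 CPM for ID 76641 (−6.73 ± 0.74, adjusted p = 8.91e-07, and −7.92 without Δxyr1 cellulose replicate 3) and 0.237, 0.893 and 0.570 CPM for ID 68988 (−6.15 ± 0.67, adjusted p = 8.39e-07) in Δxyr1 cellulose. In QM9414 the largest fall was that of ID 76641, with 20.5, 3.29 and 3.44 CPM in QM9414 cellulose and 162 and 296 CPM in QM9414 glucose (−4.63 ± 0.63, adjusted p = 1.61e-05). Cellulose replicate 1 was the highest of the 3 cellulose libraries for this gene, and without it the log2 fold change was −6.08 (adjusted p = 9.31e-08). The same library was highest for IDs 53503 (16.2, 5.57 and 3.38 CPM), 68988 (3.88, 0.572 and 0.246 CPM), 59272 (16.0, 10.8 and 11.4 CPM) and 64314 (0.298, 0 and 0 CPM) in QM9414 cellulose. Their log2 fold changes against glucose were −3.92 ± 0.43, −3.22 ± 0.59, −3.35 ± 0.26 and −4.14 ± 0.71 with it and −4.86, −5.26, −3.55 and −7.97 without it, all called. The value of ID 59272 was −2.74 without QM9414 glucose replicate 3. Without replicate 1, ID 64314 has no count in QM9414 cellulose, so the last of these values is a fitted one and no bound. Over all 170 transporters, 86 rose and 22 fell without this library.

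**Figure D3:**
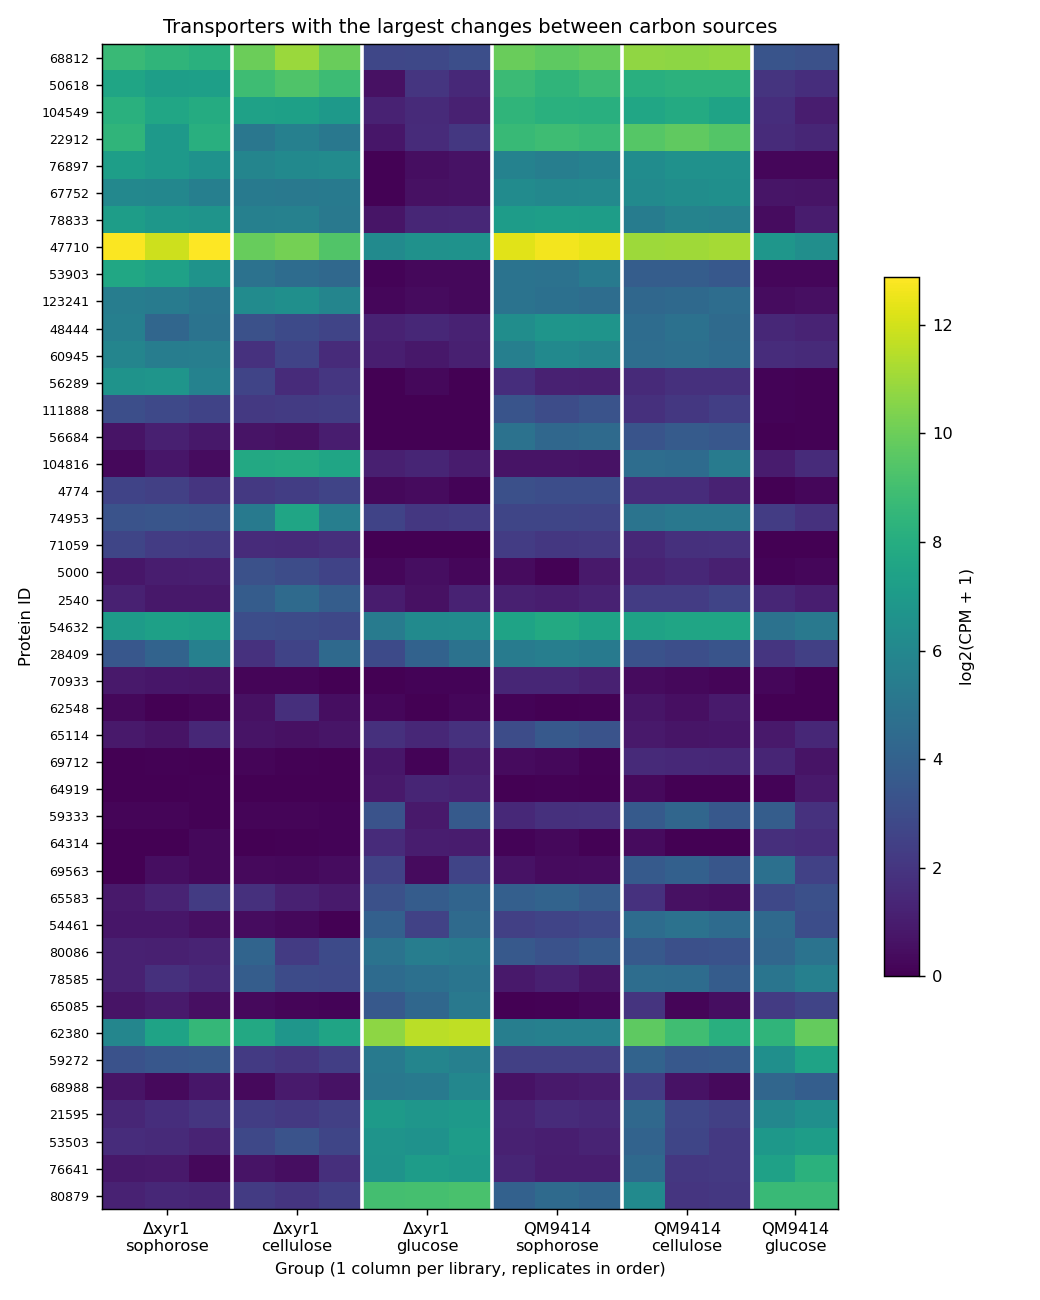
Levels of the transporters with the largest changes between carbon sources, as log2(CPM + 1) in colour, with 1 row per protein ID and 1 column per library in the 6 groups, Δxyr1 left of QM9414. The upper rows are dark in the glucose columns of both strains, the lower rows are bright there, and ID 47710 is the brightest row in sophorose.

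ID 104816, a permease with no named substrate, had the lowest log2 fold change of sophorose against cellulose among named transporters in both strains. It had 0.207, 0.706 and 0.360 CPM in Δxyr1 sophorose, 215, 237 and 188 CPM in Δxyr1 cellulose, and 1.23, 1.55 and 0.998 CPM in Δxyr1 glucose, against 0.628, 0.575 and 0.539 CPM in QM9414 sophorose, 23.4, 22.0 and 40.4 CPM in QM9414 cellulose, and 0.993 and 2.04 CPM in QM9414 glucose. All sophorose and glucose libraries were at or below 2.04 CPM and all cellulose libraries at or above 22.0 CPM. Sophorose was below cellulose 486-fold in Δxyr1 (−8.93 ± 0.37, adjusted p = 1.11e-10, and −9.52 without Δxyr1 sophorose replicate 2) and 48.8-fold in QM9414 (−5.61 ± 0.34, adjusted p = 1.79e-08). ID 2540 was also lower in sophorose, with 1.24, 0.770 and 0.792 CPM in Δxyr1 sophorose and 12.6, 20.5 and 13.1 CPM in Δxyr1 cellulose (−4.04 ± 0.31, adjusted p = 5.98e-08). ID 74953 had 8.67, 9.56 and 8.79 CPM in Δxyr1 sophorose and 37.5, 189 and 44.2 CPM in Δxyr1 cellulose (−3.33 ± 0.47, adjusted p = 2.88e-05), with cellulose replicate 2 far above the other 2 and a log2 fold change of −2.18 without Δxyr1 cellulose replicate 2. ID 5000 had 0.688, 1.03 and 1.08 CPM in Δxyr1 sophorose and 8.06, 6.87 and 5.05 CPM in Δxyr1 cellulose (−2.82 ± 0.38, adjusted p = 2.15e-05). ID 80086, the peptide transporter, also belonged to the 6 largest falls in Δxyr1 (−2.71 ± 0.46, adjusted p = 1.58e-04), with −1.94 without Δxyr1 cellulose replicate 1. ID 62548 was low in every library, with 0.207, 0 and 0.144 CPM in Δxyr1 sophorose and 0.474, 2.34 and 0.407 CPM in Δxyr1 cellulose (−3.25 ± 0.84, adjusted p = 0.00479). Its log2 fold change was −3.93 without Δxyr1 sophorose replicate 1, −2.66 without replicate 2 and −1.86 without Δxyr1 cellulose replicate 2, and this last value was not called (adjusted p = 0.0824).

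On the other side, 6 transporters stood highest over cellulose in Δxyr1 sophorose. ID 56289 had 97.8, 103 and 51.9 CPM in Δxyr1 sophorose and 5.22, 1.99 and 3.18 CPM in Δxyr1 cellulose (4.66 ± 0.36, adjusted p = 8.05e-08). ID 54632 had 132, 161 and 144 CPM in Δxyr1 sophorose and 7.23, 6.80 and 5.87 CPM in Δxyr1 cellulose (4.46 ± 0.23, adjusted p = 1.11e-09). ID 60945 had 56.4, 43.2 and 44.3 CPM in Δxyr1 sophorose and 2.61, 5.01 and 1.96 CPM in Δxyr1 cellulose (3.87 ± 0.26, adjusted p = 2.04e-08). IDs 47710 and 53903 rose less, with log2 fold changes of 2.72 ± 0.30, adjusted p = 2.49e-06, and 2.71 ± 0.23, adjusted p = 2.05e-07. The libraries of the carbon sources did not overlap for any of them, which was a condition for naming them. ID 70933 had 0.826, 0.706 and 0.648 CPM in Δxyr1 sophorose and 0.119, 0.137 and 0 CPM in Δxyr1 cellulose, with 3 counts over the cellulose group, a ratio of 8.55-fold (95% counting interval 2.68 to 43.6). In QM9414 sophorose against cellulose, ID 65114 rose most, with 7.07, 11.2 and 8.80 CPM in QM9414 sophorose and 0.845, 0.643 and 0.738 CPM in QM9414 cellulose (3.58 ± 0.34, adjusted p = 9.32e-07). ID 65583 had 13.9, 16.4 and 11.9 CPM in QM9414 sophorose and 2.58, 0.500 and 0.369 CPM in QM9414 cellulose (3.51 ± 0.57, adjusted p = 1.84e-04), with cellulose replicate 1 above the other 2, and a log2 fold change of 5.00 without it. ID 70933 was again among the rises (2.71 ± 0.46, adjusted p = 2.84e-04), as were IDs 28409 (2.26 ± 0.64, adjusted p = 0.0118), 4774 (2.00 ± 0.28, adjusted p = 4.60e-05) and 48444 (1.99 ± 0.26, adjusted p = 2.35e-05).

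The falls in QM9414 sophorose against cellulose included ID 69563, with 0.550, 0.319 and 0.359 CPM in QM9414 sophorose and 11.5, 14.2 and 9.84 CPM in QM9414 cellulose (−4.85 ± 0.81, adjusted p = 2.29e-04). ID 78585 followed, with 0.864, 1.21 and 0.659 CPM in QM9414 sophorose and 23.4, 22.2 and 12.7 CPM in QM9414 cellulose (−4.40 ± 0.38, adjusted p = 4.49e-07). ID 62380 was among them (−3.48 ± 0.60, adjusted p = 3.28e-04), with a log2 fold change of −3.02 when cellulose replicate 1 was left out. ID 69712 had 0.314, 0.192 and 0.0599 CPM in QM9414 sophorose and 1.94, 1.79 and 1.66 CPM in QM9414 cellulose (−3.27 ± 0.59, adjusted p = 4.83e-04). ID 62548 had 0.0785, 0 and 0.0599 CPM in QM9414 sophorose and 0.646, 0.429 and 0.922 CPM in QM9414 cellulose, with 2 counts over the sophorose group, a ratio of 15.2-fold (95% counting interval 3.90 to 131) in favour of cellulose (adjusted p = 0.013). In each of these genes the sophorose libraries lay below all cellulose libraries, which was a condition for naming them. ID 62548 reached 10 counts in cellulose libraries alone.

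Whether a carbon source effect differed between the strains was tested as the Δxyr1 log2 fold change minus that of QM9414. In sophorose against glucose, 26 differences were called higher in Δxyr1 and 12 lower, or 22.4% of the transporters where 12.0% of all genes were called (6.54% higher and 5.48% lower). In cellulose against glucose, 12 were higher and 35 lower, or 27.6% where 19.1% of all genes were called (7.87% higher and 11.3% lower). In sophorose against cellulose, 44 were higher and 22 lower, or 38.8% where 28.6% of all genes were called (16.8% higher and 11.8% lower). Without scaling factors they were 5 and 10, 37 and 15, and 21 and 39, with the median of all genes moved by 0.20, 0.79 and −0.60. The larger side was thus the other one in each comparison. Shares of all genes in these runs are not given, so these counts only show how scaling moved the calls. With upper-quartile factors the split in cellulose against glucose was 18 and 31, and without Δxyr1 glucose replicate 3 it was 18 and 29. QM9414 cellulose replicate 1 is included in the split of 12 and 35, and the split without it is not given here. Leaving that library out ended the calls of IDs 65085 and 68988, both on the lower side. The split in sophorose against glucose also rested on single libraries, with 12 and 9 without Δxyr1 sophorose replicate 2, 15 and 19 without Δxyr1 glucose replicate 1, and 7 and 11 without QM9414 glucose replicate 1, and it was 23 and 17 with DESeq2.

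In sophorose against glucose, 65 transporters rose in both strains and 36 fell in both, or 38.2% and 21.2%, where 14.5% and 12.2% of all genes did, and 1 was called in opposite directions. In the comparison of cellulose with glucose, 73 rose in both and 19 fell in both, or 42.9% and 11.2%, where 14.6% and 10.8% of all genes did, and 3 were called in opposite directions. A further 21, or 12.4%, fell in Δxyr1 and were not called in QM9414, where 9.95% of all genes did so. The difference itself was called for 10 of these 21, or 47.6%, and for 42.6% of all genes with that pair of calls. These counts, too, are given with QM9414 cellulose replicate 1 included. In sophorose against cellulose, 7 rose in both and 12 fell in both, or 4.12% and 7.06%, where 2.32% and 3.20% of all genes did, and 3 were called in opposite directions, among 51 called in Δxyr1 and 61 called in QM9414.

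**Figure D4:**
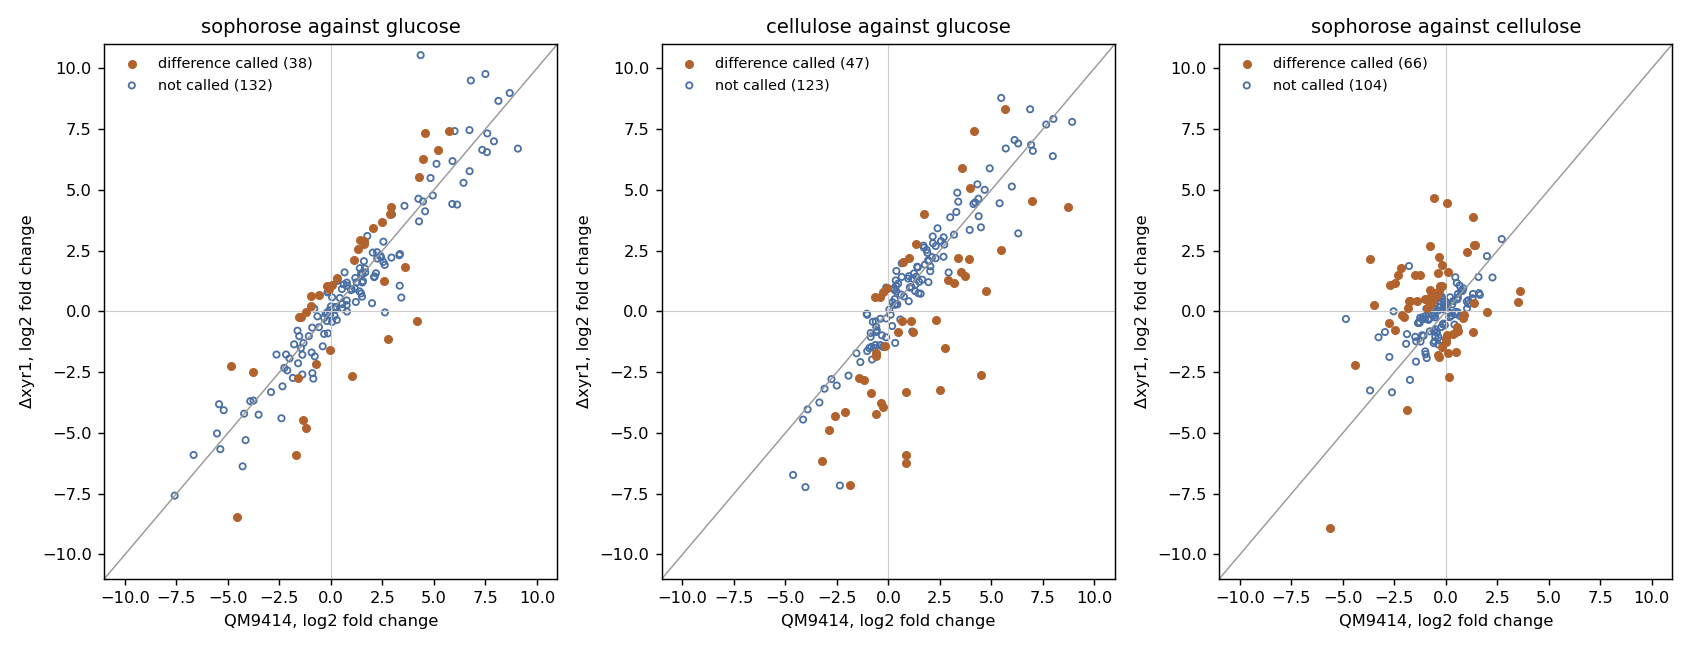
Log2 fold change of each of the 170 transporters in Δxyr1 (vertical axis) against that in QM9414 (horizontal axis), in 1 panel per comparison, with filled points where the difference between strains was called. The 2 panels against glucose spread along the line of equal change with 38 and 47 filled points, and the panel of sophorose against cellulose is tighter around 0 with 66.

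ID 44175, the H+ sugar transporter, had a difference of −4.54 ± 0.46, adjusted p = 1.42e-05, in sophorose against glucose and −7.10 ± 0.51, adjusted p = 1.92e-07, in cellulose against glucose. ID 54632, a permease of unnamed substrate, was lowest in Δxyr1 cellulose. It had 132, 161 and 144 CPM in Δxyr1 sophorose, 7.23, 6.80 and 5.87 CPM in Δxyr1 cellulose, and 40.6, 71.7 and 73.6 CPM in Δxyr1 glucose, against 174, 229 and 172 CPM in QM9414 sophorose, 169, 187 and 193 CPM in QM9414 cellulose, and 27.6 and 36.0 CPM in QM9414 glucose. The 3 Δxyr1 cellulose libraries were below every other library. It fell in Δxyr1 cellulose against glucose (−3.22 ± 0.22, adjusted p = 4.66e-09) and rose in QM9414 cellulose against glucose (2.52 ± 0.24, adjusted p = 4.10e-07), and the difference was −5.74 ± 0.33, adjusted p = 3.25e-08. In sophorose against glucose it rose in both strains (1.24 ± 0.20 in Δxyr1 and 2.59 ± 0.24 in QM9414). ID 54461 had 0.688, 0.706 and 0.432 CPM in Δxyr1 sophorose, 0.356, 0.206 and 0 CPM in Δxyr1 cellulose, and 14.6, 4.75 and 21.0 CPM in Δxyr1 glucose, against 4.40, 5.17 and 6.23 CPM in QM9414 sophorose, 22.8, 27.9 and 21.5 CPM in QM9414 cellulose, and 20.1 and 7.29 CPM in QM9414 glucose. It was under 1 CPM in all Δxyr1 sophorose and cellulose libraries and at least 4.40 CPM in the others, and the difference in cellulose against glucose was −7.07 ± 0.91, adjusted p = 5.05e-05, with −7.66 without Δxyr1 cellulose replicate 1, −6.48 without replicate 3, −7.96 without QM9414 glucose replicate 1 and −6.48 without replicate 3. ID 59333 had 0.138, 0.128 and 0.0720 CPM in Δxyr1 sophorose and 0.119, 0.137 and 0.0815 CPM in Δxyr1 cellulose, against 1.81, 2.49 and 2.52 CPM in QM9414 sophorose and 11.7, 17.8 and 10.6 CPM in QM9414 cellulose. Its libraries of the strains did not overlap in these carbon sources, while the glucose libraries did (8.95, 0.872 and 11.7 CPM in Δxyr1 and 12.8 and 2.52 CPM in QM9414), and the difference in cellulose against glucose was −6.76 ± 1.29, adjusted p = 0.00123, with −8.32 without QM9414 glucose replicate 1 and −5.95 without replicate 3.

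Of the genes whose response was larger in Δxyr1, ID 56289 had 97.8, 103 and 51.9 CPM in Δxyr1 sophorose and 5.22, 1.99 and 3.18 CPM in Δxyr1 cellulose, against 2.20, 1.28 and 1.20 CPM in QM9414 sophorose and 1.94, 2.43 and 2.46 CPM in QM9414 cellulose. Only Δxyr1 sophorose stood above 6 CPM. The difference in sophorose against cellulose was 5.22 ± 0.54, adjusted p = 3.20e-06, while that in sophorose against glucose was not called (6.19 ± 2.43, adjusted p = 0.089) and rested on 2 counts in the glucose libraries of each strain. ID 104816 rose in cellulose against glucose in both strains, and more in Δxyr1, by a difference of 3.26 ± 0.47, adjusted p = 1.25e-04, with 2.60 without QM9414 glucose replicate 3. IDs 123241, 69611 and 2540 were the other 3 of the 4 largest such differences in cellulose against glucose (2.66, 2.32 and 2.29), and that of ID 69611 was 1.61 without QM9414 glucose replicate 3 and not called (adjusted p = 0.0825). In sophorose against glucose, IDs 105260, 59272, 62502 and 69026 were higher in Δxyr1 by 2.79, 2.62, 1.80 and 1.72. The first of these was 2.19 without Δxyr1 glucose replicate 1 and 3.62 without replicate 3, and that of ID 59272 was 1.98 without QM9414 glucose replicate 3. The call of ID 105260 was lost without QM9414 glucose replicate 1 (2.82, adjusted p = 0.053) or replicate 3 (2.71, adjusted p = 0.111). That of ID 69026 was lost without QM9414 glucose replicate 1 (1.23, adjusted p = 0.157), Δxyr1 glucose replicate 1 (1.57, adjusted p = 0.0549) or scaling factors (1.93, adjusted p = 0.0569). ID 59272 was a gene of glucose cultures in both strains and fell less in Δxyr1 sophorose. It had 8.61, 10.3 and 11.3 CPM in Δxyr1 sophorose and 38.7, 57.2 and 48.4 CPM in Δxyr1 glucose, against 4.48, 4.41 and 4.49 CPM in QM9414 sophorose and 85.0 and 175 CPM in QM9414 glucose. Its glucose libraries were lower in Δxyr1 than in QM9414 and its sophorose libraries higher, without overlap.

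ID 65114 was the transporter with opposite calls in sophorose against glucose. It had 0.826, 0.577 and 1.73 CPM in Δxyr1 sophorose, 0.593, 0.481 and 0.652 CPM in Δxyr1 cellulose, and 2.45, 1.74 and 2.53 CPM in Δxyr1 glucose, against 7.07, 11.2 and 8.80 CPM in QM9414 sophorose, 0.845, 0.643 and 0.738 CPM in QM9414 cellulose, and 0.813 and 1.68 CPM in QM9414 glucose. The 3 QM9414 sophorose libraries were above all others. It fell in Δxyr1 (−1.13 ± 0.35, adjusted p = 0.0114) and rose in QM9414 (2.79 ± 0.37, adjusted p = 9.42e-06), with a difference of −3.92 ± 0.51, adjusted p = 1.51e-04, and of −4.61 without QM9414 glucose replicate 3. The fall in Δxyr1 was under the fold threshold (−0.996 to −0.830) without Δxyr1 sophorose replicate 1 or 2, Δxyr1 glucose replicate 3 or scaling factors. ID 65583 had 0.826, 1.41 and 3.67 CPM in Δxyr1 sophorose and 2.49, 1.30 and 0.896 CPM in Δxyr1 cellulose, against 13.9, 16.4 and 11.9 CPM in QM9414 sophorose and 2.58, 0.500 and 0.369 CPM in QM9414 cellulose, and the difference in sophorose against cellulose was −3.12 ± 0.87, adjusted p = 0.00933. Without QM9414 cellulose replicate 1 that difference was −4.61 (adjusted p = 4.97e-04), and it was −3.98 without Δxyr1 sophorose replicate 3. ID 65085 depended on the same library. Its difference in sophorose against cellulose was 5.81 ± 1.74, adjusted p = 0.0136, and without the library it was 3.62 and not called (adjusted p = 0.0602). For cellulose against glucose the difference was −5.30 with the library and −3.12 (adjusted p = 0.0757) without it. That of ID 68988 was −2.93 with the library and −0.89 (adjusted p = 0.403) without it. ID 22912, the glucose permease by name, rose in cellulose against glucose in both strains, and by less in Δxyr1 (−4.39 ± 0.64, adjusted p = 1.33e-04), and the difference in sophorose against glucose was not called (−0.92 ± 0.62, adjusted p = 0.314).

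**Figure D5:**
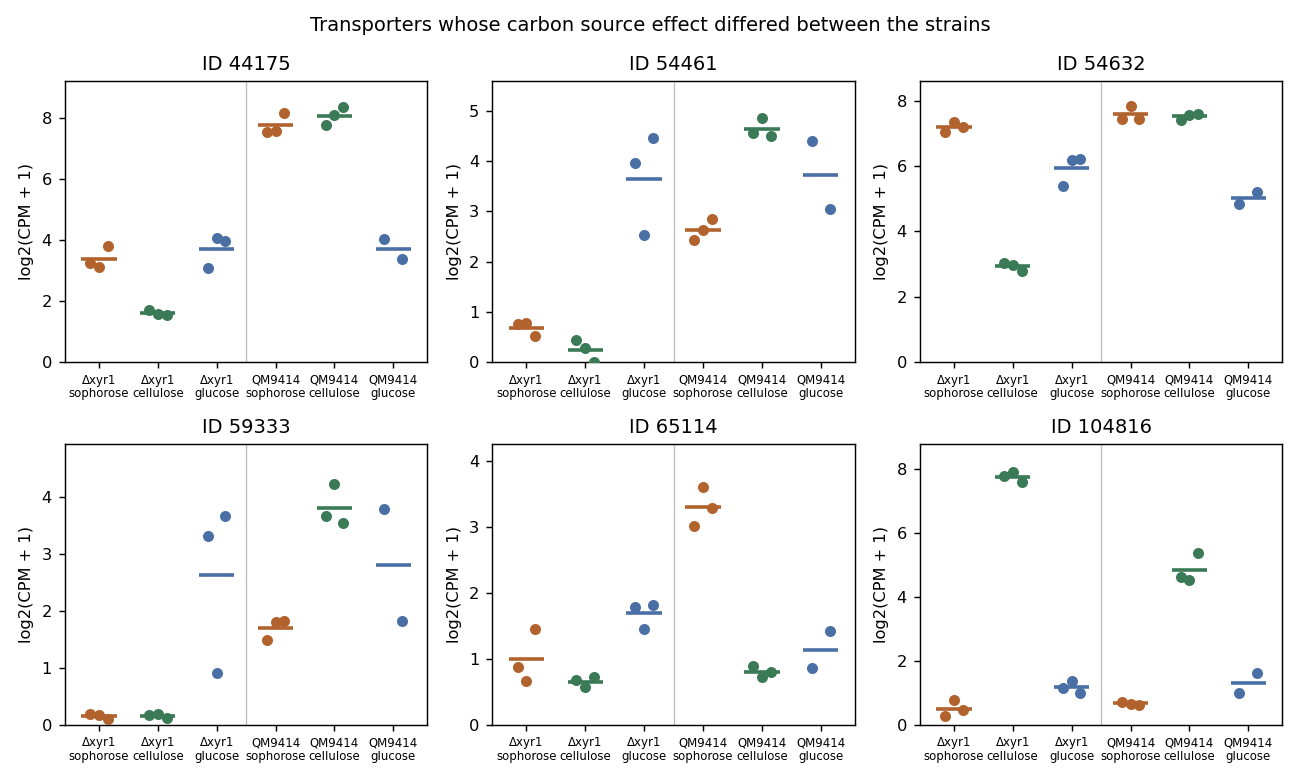
Levels of 6 transporters whose carbon source effect differed between the strains, as log2(CPM + 1), with 1 point per library and a line at the group mean, Δxyr1 groups left of QM9414 groups. ID 44175 is high only in QM9414 sophorose and cellulose, ID 54632 is low only in Δxyr1 cellulose (5.87 to 7.23 CPM), and ID 65114 is highest in QM9414 sophorose (7.07 to 11.2 CPM).

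None of the 6 comparisons of carbon sources was called for 20 transporters, or 11.8%, where the same held for 35.4% of all genes. The most abundant of them, ID 82296, had 192, 147 and 159 CPM in Δxyr1 sophorose, 181, 131 and 157 CPM in Δxyr1 cellulose, and 226, 181 and 166 CPM in Δxyr1 glucose, against 99.5, 95.9 and 100.1 CPM in QM9414 sophorose, 152, 152 and 128 CPM in QM9414 cellulose, and 161 and 149 CPM in QM9414 glucose. Its groups overlapped in Δxyr1, and in QM9414 sophorose, the lowest group, the log2 fold change against glucose was −0.66 ± 0.17, adjusted p = 0.00284, under the fold threshold. IDs 81593 and 37366 stayed between 60.6 and 104 CPM and between 42.1 and 75.7 CPM over the 17 libraries.

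Among other transporters, the 4 MFS proteins with the word drug fell in all 4 comparisons with glucose. Of all genes, 16.6% and 21.2% fell in Δxyr1 sophorose and cellulose and 19.2% and 13.6% in QM9414 sophorose and cellulose. Of the 11 MFS proteins set apart, 7 rose in Δxyr1 sophorose and 7 in Δxyr1 cellulose, against 10 in QM9414 sophorose and 9 in QM9414 cellulose, each against glucose. These are 63.6%, 63.6%, 90.9% and 81.8%, where 19.4%, 23.0%, 19.6% and 19.2% of all genes rose. The published text names these 11 by ID, some of them for lower levels in Δxyr1 in these same data. Their counts in Δxyr1 against QM9414 were thus partly fixed by that choice. Of 47 ABC transporters, a family of ATP-driven carriers, 11 rose and 16 fell in Δxyr1 sophorose, 12 rose and 18 fell in Δxyr1 cellulose, 12 rose and 15 fell in QM9414 sophorose, and 11 rose and 10 fell in QM9414 cellulose, each against glucose. Of 43 amino acid permeases, 16 rose and 12 fell, 18 rose and 11 fell, 15 rose and 12 fell, and 20 rose and 7 fell in the same comparisons. In that order, 57.4%, 63.8%, 57.4% and 44.7% of the ABC transporters were called. The shares were 65.1%, 67.4%, 62.8% and 62.8% for the amino acid permeases and 36.0%, 44.2%, 38.8% and 32.8% for all genes. More frequent calls than among all genes were thus not particular to the 170 transporters. These lists were described by counts and shares and were not tested against each other.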

How the data were processed

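RNA-seq counts of 17 libraries in 6 groups were used. Reads of 100 bp were mapped with TopHat2 2.0.4 to the T. reesei 2.0 genome, handled with SAMtools 0.1.19 and counted with HTSeq 0.6.0, and the authors deposited raw counts for 9129 genes, without normalization. How strand was treated is not given in the sources used here. A deposited table of the authors' comparisons gave the protein descriptions, and its fold changes and p-values, made with DESeq2 1.6.3, were not used. In these descriptions some letters had been overwritten by the words unknown protein, and a normalized table of the authors was not used.

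A gene was kept with 10 or more counts in 2 or more libraries, and all kept genes entered 1 quasi-likelihood model of edgeR 4.0.16 (limma 3.58.1, R 4.3.3) with TMM factors. IDs 3532 and 62548 (cellulose), ID 70933 (sophorose), and IDs 64314 and 64919 (glucose), for example, reached 10 counts only in libraries of the carbon source given. The filter thus partly set the direction of their changes. P-values were adjusted over all 8506 genes, and they measure the spread between the libraries. Where a group had no count, 3 counts over that group served as its floor, and ratios on 1 to 3 counts carry exact intervals for counting error only. Folds given as at least a value rest on this set floor and leave out counting error in the other group. Gene spans and gene order came from the RefSeq table of the QM6a assembly v2.0, in which 9072 genes matched.

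The text names, among called transporters without overlap between libraries, the 6 largest rises and falls per comparison of carbon sources, the 4 largest strain differences in each direction, the 4 most abundant per group and those whose description names a substrate. Members and lists were chosen with earlier results of these data known. IDs 78833, 70349, 64874, 81593, 37366 and the pairs of neighbours were chosen after their values were seen. Alternatives were DESeq2 1.42.0, RLE, upper-quartile or no scaling factors, no filter or at least 1 CPM in 3 libraries, a fit of each strain alone, a replicate block, no fold threshold, and each library left out. Protein and promoter sequences were not analysed here.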

Additional observations from a re-analysis of the deposited data

Results flagged for a closer look

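The carbon source effect differed between the strains for these named transporters, by the edgeR test of the difference itself, given as log2 fold change in Δxyr1 minus that in QM9414 with its SE. In sophorose against glucose the difference was −4.54 ± 0.46 in ID 44175, −4.22 ± 1.34 in ID 59333, −3.92 ± 0.51 in ID 65114 and −3.89 ± 1.28 in ID 80879 (adjusted p between 1.42e-05 and 0.0459). Here ID 65114 was called in opposite directions in the strains, and ID 44175 rose in QM9414 and was not called in Δxyr1. IDs 59333 and 80879 fell in both strains, further in Δxyr1. The call of the difference was lost when any of 11 libraries was left out for ID 59333 (−4.37 to −3.45, adjusted p = 0.0511 to 0.0926) and any of 14 for ID 80879 (−4.00 to −3.76, adjusted p = 0.0555 to 0.135). Without QM9414 cellulose replicate 1, however, the difference of ID 80879 stayed called, at −3.89 (adjusted p = 1.84e-07). The fall of ID 59333 in QM9414 (−1.69, adjusted p = 0.0435) was lost in 12 alternatives, and was −0.14 without QM9414 glucose replicate 1. The difference was higher in Δxyr1 by 2.79 ± 0.72 in ID 105260, 2.62 ± 0.36 in ID 59272, 1.80 ± 0.31 in ID 62502 and 1.72 ± 0.46 in ID 69026 (adjusted p between 2.45e-04 and 0.0192). IDs 105260, 62502 and 69026 rose in both strains, and ID 59272 fell in both. The calls of IDs 105260 and 69026 were lost in 2 and 3 alternatives, as given above.

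In cellulose against glucose, the difference was −7.10 ± 0.51 in ID 44175, −7.07 ± 0.91 in ID 54461, −6.76 ± 1.29 in ID 59333, −5.74 ± 0.33 in ID 54632, −5.30 ± 1.26 in ID 65085, −4.39 ± 0.64 in ID 22912 and −2.93 ± 0.94 in ID 68988 (adjusted p between 3.25e-08 and 0.0291). Without QM9414 cellulose replicate 1 the difference was −3.12 (adjusted p = 0.0757) in ID 65085 and −0.89 (adjusted p = 0.403) in ID 68988, and neither was called. That of ID 68988 was also lost in 6 other alternatives. IDs 65085 and 68988 fell in both strains, ID 22912 rose in both, IDs 44175 and 54632 were called in opposite directions, and IDs 54461 and 59333 were called in Δxyr1 only. The fall of ID 65085 in QM9414 (−1.86, adjusted p = 0.0311) was lost in 7 alternatives, and was −4.04 (adjusted p = 1.38e-04) without QM9414 cellulose replicate 1. The difference was higher in Δxyr1 by 3.26 ± 0.47 in ID 104816, 2.66 ± 0.55 in ID 123241, 2.32 ± 0.48 in ID 69611 and 2.29 ± 0.47 in ID 2540 (adjusted p between 1.25e-04 and 0.00229), and all of these rose in both strains. The call of ID 69611 was lost without QM9414 glucose replicate 3.

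In sophorose against cellulose, the difference was −3.32 ± 0.58 in ID 104816, −3.12 ± 0.87 in ID 65583, −2.88 ± 0.59 in ID 80086, −2.73 ± 0.59 in ID 65114, −2.16 ± 0.44 in ID 2540 and −2.03 ± 0.39 in ID 4774 (adjusted p between 3.11e-04 and 0.00933). IDs 104816 and 2540 fell in both strains, further in Δxyr1, ID 80086 fell in Δxyr1 only, and IDs 65583, 65114 and 4774 rose in QM9414 only. The difference was higher in Δxyr1 by 5.81 ± 1.74 in ID 65085, 5.22 ± 0.54 in ID 56289, 4.39 ± 0.30 in ID 54632, 3.97 ± 1.11 in ID 54461, 3.75 ± 0.80 in ID 62380, 2.58 ± 0.34 in ID 60945, 2.22 ± 0.54 in ID 78585, 1.34 ± 0.31 in ID 53903 and 1.31 ± 0.39 in ID 47710 (adjusted p between 5.48e-08 and 0.0139). IDs 47710, 53903 and 60945 rose in both strains and ID 78585 fell in both. IDs 62380, 54461 and 65085 were called lower in QM9414 only, and IDs 54632 and 56289 higher in Δxyr1 only. Without QM9414 cellulose replicate 1, neither the difference of ID 65085, 3.62 (adjusted p = 0.0602), nor its fall in QM9414, −1.49 (adjusted p = 0.367), was called. In the same run the difference of ID 65583 was −4.61 (adjusted p = 4.97e-04) and that of ID 62380 was 3.29 (adjusted p = 0.00437). Without scaling factors the differences of IDs 47710 and 53903 were 0.67 (adjusted p = 0.299) and 0.86 (adjusted p = 0.18). Culture times in cellulose differed between the strains, so strain and time cannot be told apart in the comparisons with cellulose.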

How the results depend on the processing

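Of 96 named log2 values, 88 kept their call in every alternative run in which the gene was tested. Of 2372 values under alternatives, 2338 kept their call, 34 lost it and 0 changed sign. With at least 1 CPM in 3 libraries, 93 of the 96 were tested. The 96 had been picked as the largest called changes, which favours calls that hold. When 1 library at a time was left out, the number of transporters called lay between 116 and 123, 121 and 130, and 42 and 55 in Δxyr1 (sophorose against glucose, cellulose against glucose, sophorose against cellulose), and between 109 and 117, 100 and 108, and 56 and 62 in QM9414. For the differences between strains it lay between 18 and 39, 38 and 50, and 60 and 69, and the lowest values in sophorose against glucose were 21 without Δxyr1 sophorose replicate 2 and 18 without QM9414 glucose replicate 1. With no fold threshold, 86 transporters passed in Δxyr1 and 96 in QM9414 for sophorose against cellulose, and without scaling factors 15 strain differences were called in sophorose against glucose. The cause was not tested, apart from the missing threshold. Counts under alternatives, here and above, are of transporters only and were not set against the share of all genes in the same run.

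Calls were lost for ID 62548 in QM9414 sophorose against cellulose (−3.15, adjusted p = 0.0538, without QM9414 sophorose replicate 2), for the strain difference of ID 69611 in cellulose against glucose (1.61, adjusted p = 0.0825, without QM9414 glucose replicate 3), for ID 62548 in Δxyr1 and the difference of ID 65085 as given above, and for strain differences in sophorose against glucose of ID 105260 (2 alternatives, 2.71 to 2.82), ID 69026 (3 alternatives, 1.23 to 1.93), ID 59333 (11 alternatives, −4.37 to −3.45) and ID 80879 (14 alternatives, −4.00 to −3.76). Leaving out 1 library moved 38 of the 96 named log2 values by over 1.5 times on the fold scale.

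The samples were treated as unpaired. Of 40 pairs of same-numbered libraries, 17 had a correlation of deviations over 0.1 (−0.262 to 0.437). Libraries with different numbers were not compared in this way, so the check cannot tell whether the replicate numbers pair the samples. With the replicate number as a block, the counts called were 120, 123 and 53 in Δxyr1, 116, 104 and 62 in QM9414, and 37, 47 and 62 for the differences, and no named call changed. Low counts limit transporters under 1 CPM, for which intervals are wide.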

Other observations

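Neighbours within 5000 bp in the RefSeq gene order were looked up for all transporters, which gave 293 entries of a transporter and a neighbour for 166 of them. A pair of adjacent transporters was entered once from each side. In 36 entries, or 12.3%, both genes were called in the same direction in at least 4 of the 6 comparisons. Among 7382 pairs of adjacent tested genes, each counted once, this held for 5.68%, so the shares are not on the same base. Transporters were also called more often than other genes. The pairs described here were chosen after their values were seen, and no test of the pairing was made. ID 56289 lies 759 bp from ID 57179, a GH105 protein, a family of unsaturated glucuronyl and galacturonyl hydrolases. In Δxyr1 sophorose against cellulose, ID 57179 rose by 5.51 on the log2 scale (adjusted p = 1.11e-06), as ID 56289 did by 4.66. In QM9414 the same comparison was called for neither gene (0.25 for ID 57179 and −0.56 for ID 56289).

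ID 69834 lies 108 bp from ID 72704, a GH27 α-galactosidase (AGL3). ID 69834 had 37.0, 29.8 and 19.2 CPM in Δxyr1 sophorose, 38.4, 40.3 and 29.7 CPM in Δxyr1 cellulose, and 1.23, 1.74 and 2.07 CPM in Δxyr1 glucose, against 28.3, 30.7 and 30.6 CPM in QM9414 sophorose, 44.8, 52.8 and 61.4 CPM in QM9414 cellulose, and 1.08 and 1.36 CPM in QM9414 glucose, without overlap between glucose and the other carbon sources. ID 72704 rose against glucose by 4.50 and 4.09 in Δxyr1 sophorose and cellulose and by 4.85 and 4.01 in QM9414 sophorose and cellulose. ID 71059 lies 566 bp from ID 71072, a gluconate kinase, and 643 bp from ID 71080, a Zn2Cys6 transcriptional regulator. The regulator rose against glucose by 4.94 and 2.75 in Δxyr1 sophorose and cellulose and by 4.83 and 2.84 in QM9414, and the kinase by 4.93, 4.46, 4.50 and 5.87 in the same order.

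Neighbouring transporters did not always move together. ID 80875 lies 4618 bp from ID 80879, the H+/oligopeptide transporter that fell away from glucose. ID 80875 had 70.0, 141 and 111 CPM in Δxyr1 sophorose, 101, 121 and 82.2 CPM in Δxyr1 cellulose, and 14.3, 18.5 and 14.0 CPM in Δxyr1 glucose, against 36.4, 34.1 and 51.5 CPM in QM9414 sophorose, 44.1, 47.7 and 39.2 CPM in QM9414 cellulose, and 16.4 and 10.6 CPM in QM9414 glucose, and rose in all 4 comparisons with glucose (log2 fold change at most 2.78, in Δxyr1 sophorose). ID 122013, 4 bp from the maltose permease ID 48444, was called in none of the Δxyr1 comparisons and fell in QM9414 cellulose against glucose (−1.03 ± 0.15, adjusted p = 2.85e-05), where ID 48444 rose. How strand was treated in counting is not given in the sources used here.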
